A study of Mus musculus with 23 samples.

Results

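The 40 genes described here encode soluble enzymes and membrane proteins of the lysosome. They were taken by symbol from a fixed list, and all 40 were found among the 22310 named genes of the count table. All 40 also passed the filter on low counts, which left 16209 genes to test. Each gene was graded by the share of its wild-type control level that was left after an inhibitor. RNA-seq had been done on brain tissue of C57BL/6J mice of 2 genotypes, wild type (WT) and Csf1R-G793A (G793A), which has an amino acid exchange in the receptor for colony-stimulating factor 1. Mice of each genotype ate control chow, chow with PLX3397 at 290 mg/kg or chow with PLX5622 at 1200 mg/kg for 14 days. Both compounds inhibit that receptor, so the design asks what each does to the brain transcriptome and whether the substitution prevents it. There were 3 libraries of WT mice on control chow and 4 of each other group, 23 in all. The labels give no age, sex, brain region, zygosity or batch. They do not say whether replicates were separate animals, and the p-values measure the spread between these libraries alone.

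Lysosomes are acid compartments in which proteins, sugar chains and lipids that a cell has taken up or is recycling are broken down. Their hydrolases are made in the endoplasmic reticulum, sorted to the lysosome and held behind a membrane of heavily glycosylated proteins, while a proton pump keeps the inside acid. Every brain cell has lysosomes. Microglia, the resident macrophages of the brain, are rich in them and also use some of their proteases to process antigen and some of their membrane proteins to sense microbial nucleic acids.

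Total counts ran from 26.3 to 48.2 M (M, mega) per library. Levels are given as CPM, the count divided by the library's total in M after TMM scaling, which corrects for differences in composition between libraries, and log2 differences are given with their SE. The 12 microglia markers measured beside the lysosomal genes had a summed level of 352 to 370 CPM in WT controls, 70.8 to 110 CPM in WT mice on PLX3397 and 37.5 to 76.4 CPM in WT mice on PLX5622. In G793A mice the sum was 288 to 353 CPM on control chow, 258 to 305 CPM on PLX3397 and 237 to 298 CPM on PLX5622. The summed level of 8 markers of border macrophages, which line vessels and meninges, was 26.1 to 30.0 CPM in WT controls, 5.23 to 6.93 CPM with PLX3397 and 5.34 to 6.67 CPM with PLX5622. In bulk tissue, fewer cells of a type and less RNA per cell cannot be told apart. Monocyte and neutrophil markers (6 genes) summed to 0.842 to 1.33 CPM in WT controls, 2.26 to 10.1 CPM in WT mice on PLX3397 and 1.12 to 8.87 CPM in WT mice on PLX5622. Replicate 1 of WT mice on PLX5622 and replicate 2 of G793A mice on PLX5622 held transcripts of cerebellar granule cells (Cbln3 at 30.8 and 220.5 CPM, at most 1.73 CPM elsewhere). Pituitary markers (3 genes) summed to 1.79 to 100.5 CPM in WT mice on PLX5622 and at most 7.12 CPM in every other group. Choroid plexus markers (3 genes) summed to 407 to 699 CPM in WT controls, 343 to 562 CPM in WT mice on PLX3397 and 349 to 1055 CPM in WT mice on PLX5622. In G793A mice their sum was 230 to 1123 CPM on control chow, 276 to 668 CPM on PLX3397 and 223 to 401 CPM on PLX5622. No check left out libraries by these pituitary or choroid plexus sums.

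In WT mice either inhibitor lowered a minority of the lysosomal genes and left most near the control level. With PLX3397 11 of the 40 fell and 0 rose, and with PLX5622 13 fell and 0 rose, by edgeR's quasi-likelihood test at an adjusted p (Benjamini-Hochberg, all 16209 genes) under 0.05. Of all genes tested, 1.49% fell and 0.037% rose with PLX3397, and 1.59% fell and 0.074% rose with PLX5622. At an unadjusted p under 0.05 there were 1331 of the 16209 genes with PLX3397 and 1367 with PLX5622. The 11 genes that fell with PLX3397 were all among the 13 that fell with PLX5622, and both comparisons use the same 3 control libraries. Over the 40 genes the median log2 difference was −0.08 with PLX3397 and −0.09 with PLX5622, and it was 0.01 over all genes with either inhibitor. Every library on the inhibitor lay below every control library for 17 of the 40 with PLX3397 and for 17 with PLX5622, against 6.12% and 5.27% of all genes.

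The share left spread from 14.9% to 110.0% of the WT control mean. Averaged over both inhibitors, 4 genes kept under 40%, 7 kept from 40 to under 80% and 29 kept 80% or more. Lowest was the protease gene Ctss, which kept 25.6% ± 6.32 (SD, n = 4) with PLX3397 and 14.9% ± 5.03 (n = 4) with PLX5622. Next came Laptm5 (26.3% ± 5.67 and 15.5% ± 6.52), Slc11a1 (36.9% ± 9.90 and 24.0% ± 7.39) and Unc93b1 (38.7% ± 8.02 and 33.6% ± 6.18). The average share of Unc93b1 was 36.1%, just inside the lowest grade, and that of Cd68 was 41.5%, just outside it. At the other limit Ctsd had an average share of 79.9% and Man2b1 81.5%. Neighbours in this order are close by construction, since it was set by these same shares, and mostly did not differ beyond their spread. Of 39 neighbouring pairs, 0 had separate ranges of mean ± SD with PLX3397, and 1 did with PLX5622, which was Cd68 against Ctsh.

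**Figure D1:**
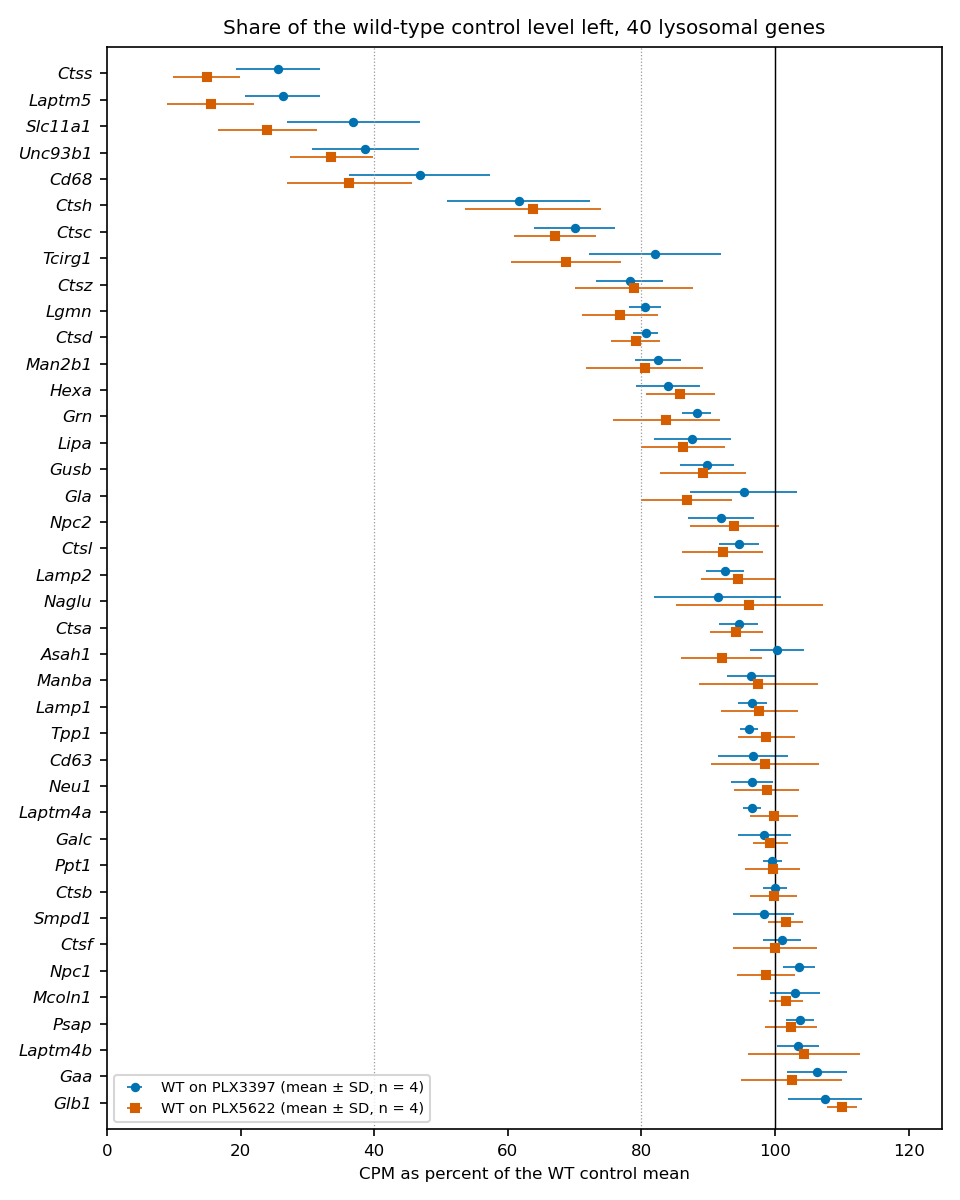
Level left in WT mice on PLX3397 (circles) and PLX5622 (squares) for the 40 lysosomal genes, as percent of the WT control mean (points: mean, bars: ± SD, n = 4), in order of the average share. Ctss and Laptm5 lie lowest, at 14.9% to 26.3%, and 29 genes lie at an average of 80% or more. Dotted lines mark 40% and 80%.

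The cysteine proteases were the role group with most falls in number. Of 8, 5 fell with each inhibitor (Ctss, Ctsh, Ctsc, Ctsz and Lgmn), and Ctsb, Ctsl and Ctsf did not pass. Ctss encodes cathepsin S, which cuts the invariant chain of MHC class II in antigen-presenting cells. Ctss stood at 63.8, 56.5 and 54.4 CPM in WT controls, at 16.8, 18.5, 14.3 and 10.1 CPM with PLX3397 and at 9.17, 4.56, 11.5 and 9.52 CPM with PLX5622. All 8 libraries on an inhibitor were far below the 3 controls, and the 2 inhibitor groups overlapped. It fell by 1.96 ± 0.20 (log2, ± SE, adjusted p = 2.28e-06) with PLX3397 and by 2.74 ± 0.21 (adjusted p = 2.40e-08) with PLX5622.

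Ctsh, an aminopeptidase of the same family, was intermediate. Ctsh stood at 9.92, 7.04 and 10.2 CPM in WT controls, at 5.47, 4.62, 5.34 and 6.93 CPM with PLX3397 and at 4.65, 5.58, 6.01 and 6.88 CPM with PLX5622. The lowest control lay just above the highest library of either inhibitor group. Ctsh fell by 0.70 ± 0.16 (adjusted p = 0.0163) and by 0.65 ± 0.16 (adjusted p = 0.0283). The call with PLX3397 was lost without WT control replicate 1 or 3 or WT PLX3397 replicate 2 or 3, with an adjusted p up to 0.152, and that with PLX5622 without WT control replicate 1 or 3 or WT PLX5622 replicate 1, 2 or 3, with an adjusted p up to 0.215. Both calls were also lost in a fit of the compared groups alone (adjusted p = 0.0698 and 0.0739), and that with PLX5622 without the 2 libraries that held cerebellar transcripts (adjusted p = 0.123).

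Ctsc encodes cathepsin C, a dipeptidyl peptidase that activates serine proteases of immune cells. Ctsc stood at 9.53, 8.23 and 10.2 CPM in WT controls, at 6.93, 6.63, 5.69 and 6.79 CPM with PLX3397 and at 6.86, 5.89, 5.63 and 6.56 CPM with PLX5622. No inhibitor library reached the lowest control. It fell by 0.52 ± 0.11 (adjusted p = 0.00585) with PLX3397, a call that was lost without WT control replicate 3 (adjusted p = 0.0744) and in limma on the deposited log2 values (adjusted p = 0.128), and by 0.58 ± 0.11 (adjusted p = 0.00153) with PLX5622.

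Lgmn encodes legumain, an endopeptidase that cuts after asparagine and matures cathepsins, and it is much more abundant in brain than Ctsh or Ctsc. On the scale of CPM per kilobase of transcript its WT control level was 57.8, against 3.30 for Ctsh and 2.89 for Ctsc. Lgmn stood at 120.0, 106 and 119 CPM in WT controls, at 93.9, 95.9, 90.6 and 90.4 CPM with PLX3397 and at 96.6, 82.4, 83.8 and 90.6 CPM with PLX5622. The groups did not overlap, although about 80% of the transcript was left (80.6% ± 2.35 and 76.8% ± 5.69, SD, n = 4). It fell by 0.31 ± 0.06 (adjusted p = 0.00201) and by 0.38 ± 0.06 (adjusted p = 0.000137).

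Ctsz, a carboxypeptidase, stood at 33.2, 33.2 and 32.8 CPM in WT controls, at 28.4, 25.1, 24.99 and 25.1 CPM with PLX3397 and at 25.9, 22.7, 25.9 and 29.9 CPM with PLX5622. Its controls were close together and above all 8 inhibitor libraries. It fell by 0.35 ± 0.09 (adjusted p = 0.0337) and by 0.34 ± 0.09 (adjusted p = 0.0418). The call with PLX3397 was lost without any of the 3 WT controls or WT PLX3397 replicate 2, 3 or 4, with an adjusted p up to 0.124. That with PLX5622 was lost on leaving out any 1 of 13 libraries, with the highest adjusted p, 0.194, without WT PLX5622 replicate 2. These were the 3 WT controls, WT PLX3397 replicates 2 to 4, WT PLX5622 replicates 1 to 3, G793A PLX3397 replicates 1 and 2 and G793A PLX5622 replicates 3 and 4. That call was lost too with the compared groups alone (adjusted p = 0.0659) and without the libraries that held cerebellar transcripts (adjusted p = 0.0793). The other cysteine protease genes kept 92.1% to 101% of the control level. Among them Ctsb, the most abundant cathepsin gene of this family here, had log2 differences with a 95% interval of −0.09 to 0.09 with PLX3397 and −0.09 to 0.08 with PLX5622.

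Of the 3 other protease genes Ctsd fell with each inhibitor, and Ctsa and Tpp1 did not pass. Ctsd encodes cathepsin D, the main aspartic protease of the lysosome. Ctsd stood at 372, 354 and 366 CPM in WT controls, at 288, 291, 303 and 291 CPM with PLX3397 and at 295, 272, 282 and 302 CPM with PLX5622. The lowest control lay well above the highest inhibitor library, and replicates differed little. It fell by 0.31 ± 0.06 (adjusted p = 0.0012) and by 0.34 ± 0.06 (adjusted p = 0.000369), which left 80.6% ± 1.87 and 79.1% ± 3.71. The serine carboxypeptidase gene Ctsa kept 94.6% and 94.2%, and the tripeptidyl peptidase gene Tpp1 kept 96.1% and 98.7%.

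Glycosidase genes mostly kept their level. Of 10, 1 fell with each inhibitor, Man2b1, which encodes the lysosomal alpha-mannosidase. Man2b1 stood at 40.9, 42.3 and 39.1 CPM in WT controls, at 34.0, 34.8, 33.9 and 31.6 CPM with PLX3397 and at 30.5, 29.2, 36.9 and 34.5 CPM with PLX5622. The groups did not overlap, but the gap to the nearest control was small with PLX5622. It fell by 0.28 ± 0.07 (adjusted p = 0.0344) and by 0.31 ± 0.07 (adjusted p = 0.0107). The call with PLX3397 was lost without any of the 3 WT controls or WT PLX3397 replicate 1, 3 or 4 (adjusted p up to 0.167). The call with PLX5622 was lost without WT control replicate 1 or 2 or WT PLX5622 replicate 2 (adjusted p up to 0.0801) and with the compared groups alone (adjusted p = 0.0962). Hexa, whose product takes part in the breakdown of gangliosides, kept 84.0% ± 4.77 and 85.8% ± 5.22 and did not pass (−0.25 ± 0.07, adjusted p = 0.0715, and −0.22 ± 0.07, adjusted p = 0.158). With PLX3397 Hexa did pass in DESeq2 (adjusted p = 0.0225). In edgeR with the trend along transcript length and GC content removed it passed with both inhibitors (adjusted p = 0.0272 and 0.0475). With PLX3397 it also passed in edgeR without G793A control replicate 3 (adjusted p = 0.0361) or WT PLX3397 replicate 3 (adjusted p = 0.0391).

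The highest shares left also belonged to glycosidase genes. Glb1, the beta-galactosidase gene, stood at 22.4, 21.3 and 22.8 CPM in WT controls, at 22.5, 24.2, 25.3 and 23.2 CPM with PLX3397 and at 24.4, 23.7, 24.6 and 24.8 CPM with PLX5622. With PLX5622 all 4 libraries were above the controls, and with PLX3397 the groups overlapped. The differences of 0.10 ± 0.07 and 0.14 ± 0.07 did not pass (adjusted p = 0.739 and 0.581). Gaa, the gene of the alpha-glucosidase that degrades glycogen, stood at 371, 355 and 453 CPM in WT controls, at 410, 399, 440 and 424 CPM with PLX3397 and at 388, 379, 446 and 400 CPM with PLX5622. Its control libraries spread more widely than its inhibitor libraries, and the groups overlapped. The remaining 6 (Gusb, Gla, Galc, Naglu, Neu1 and Manba) kept 86.8% to 99.3%.

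None of the 7 lipid handling genes passed in edgeR with either inhibitor, and 1 of 7, Lipa, had an unadjusted p under 0.05 with each. DESeq2 and limma-voom also called 0. Lipa, the acid lipase that frees cholesterol from its esters, kept 87.6% ± 5.75 and 86.2% ± 6.29. Psap, the precursor of the saposins that present sphingolipids to their hydrolases, was the most abundant of the 40 on the per-length scale (689 CPM per kilobase in WT controls). It kept 104% ± 2.11 and 102% ± 3.85. Npc1 and Npc2, which move cholesterol out of the lysosome, kept 104% and 91.9% with PLX3397 and 98.6% and 93.9% with PLX5622. The ceramidase gene Asah1, the sphingomyelinase gene Smpd1 and the thioesterase gene Ppt1 kept 92.0% to 102%.

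The membrane protein genes split sharply. Of 7, 2 fell with each inhibitor, Laptm5 and Cd68, while the classic lysosomal membrane genes Lamp1 and Lamp2 and the related genes Laptm4a and Laptm4b did not pass. Laptm5 encodes a transmembrane protein of the hematopoietic lineage that directs receptors to degradation. Laptm5 stood at 36.1, 37.5 and 34.0 CPM in WT controls, at 10.5, 11.4, 9.20 and 6.68 CPM with PLX3397 and at 7.27, 2.65, 7.65 and 4.73 CPM with PLX5622. Its highest inhibitor library, at 11.4 CPM, was far below its lowest control, at 34.0 CPM. It fell by 1.93 ± 0.20 (adjusted p = 1.87e-06) and by 2.67 ± 0.20 (adjusted p = 2.07e-08).

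Its relatives Laptm4a and Laptm4b, which are expressed in many tissues, did not pass in the same libraries. Laptm4a kept 96.6% ± 1.38 with PLX3397 and 99.8% ± 3.62 with PLX5622. Laptm4b stood at 83.1, 87.0 and 82.1 CPM in WT controls, at 84.2, 89.7, 85.0 and 88.5 CPM with PLX3397 and at 97.1, 88.7, 83.0 and 81.7 CPM with PLX5622. These groups overlapped, and the 95% interval of the log2 difference ran from −0.07 to 0.17 with PLX3397 and from −0.06 to 0.18 with PLX5622.

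Cd68 encodes a glycoprotein of macrophage lysosomes that is used as a histological marker of phagocytic cells. Cd68 stood at 7.64, 8.17 and 6.81 CPM in WT controls, at 4.49, 3.78, 3.21 and 2.63 CPM with PLX3397 and at 2.48, 1.87, 3.46 and 3.12 CPM with PLX5622. No inhibitor library came near the controls. It fell by 1.10 ± 0.16 (adjusted p = 0.000141) and by 1.46 ± 0.17 (adjusted p = 1.97e-06). Lamp1, by contrast, ran from 318 to 350 CPM in WT controls, from 316 to 333 CPM with PLX3397 and from 314 to 358 CPM with PLX5622, and the groups overlapped. Lamp2 kept 92.5% and 94.4%, and Cd63, a tetraspanin gene, kept 96.7% and 98.5%.

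Among the 4 genes of transport and trafficking, Slc11a1 and Unc93b1 fell with each inhibitor, Tcirg1 fell with PLX5622 and Mcoln1 did not pass. Slc11a1 encodes a metal ion transporter of macrophage phagosomes and was the least abundant of the 40 per length (0.74 CPM per kilobase in WT controls). Slc11a1 stood at 2.40, 1.75 and 1.91 CPM in WT controls, at 0.703, 0.993, 0.774 and 0.509 CPM with PLX3397 and at 0.578, 0.272, 0.598 and 0.487 CPM with PLX5622. Its lowest control was above its highest inhibitor library. It fell by 1.43 ± 0.22 (adjusted p = 0.000205) and by 2.04 ± 0.23 (adjusted p = 1.78e-06).

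Unc93b1 encodes the escort that takes nucleic acid-sensing Toll-like receptors to the endolysosome. Unc93b1 stood at 10.9, 9.30 and 11.1 CPM in WT controls, at 4.06, 5.10, 3.93 and 3.06 CPM with PLX3397 and at 3.44, 2.62, 4.06 and 3.90 CPM with PLX5622. The inhibitor groups overlapped each other and lay well below the controls. It fell by 1.37 ± 0.14 (adjusted p = 4.98e-07) and by 1.57 ± 0.14 (adjusted p = 2.81e-08).

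Tcirg1 encodes a membrane subunit of the proton pump that is prominent in osteoclasts. Tcirg1 stood at 8.20, 7.52 and 8.39 CPM in WT controls, at 7.15, 7.41, 6.00 and 5.83 CPM with PLX3397 and at 6.39, 4.83, 5.60 and 5.25 CPM with PLX5622. All inhibitor libraries were below the controls, by a narrow margin with PLX3397. The difference of −0.29 ± 0.12 with PLX3397 did not pass (adjusted p = 0.469), and the fall of 0.54 ± 0.12 with PLX5622 did (adjusted p = 0.0112). That call was lost without WT control replicate 1 or 3 or WT PLX5622 replicate 2 (adjusted p up to 0.0758). Mcoln1, a calcium channel gene, kept 103% ± 3.69 and 102% ± 2.53.

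Grn encodes progranulin, a secreted precursor whose granulin peptides act in the lysosome. Grn stood at 54.1, 53.8 and 52.8 CPM in WT controls, at 46.8, 48.1, 48.2 and 45.9 CPM with PLX3397 and at 44.1, 41.5, 51.1 and 42.7 CPM with PLX5622. Replicate 3 on PLX5622 lay close to the controls and the other libraries lay lower. The difference of −0.18 ± 0.07 with PLX3397 did not pass (adjusted p = 0.341), while with PLX5622 Grn fell by 0.26 ± 0.07 (adjusted p = 0.0477). That call was lost on leaving out any 1 of 13 libraries, with the highest adjusted p, 0.206, without WT PLX5622 replicate 2. These were the 3 WT controls, WT PLX3397 replicates 2 to 4, WT PLX5622 replicates 1, 2 and 4, G793A control replicate 3, G793A PLX3397 replicate 2 and G793A PLX5622 replicates 1 and 3. It was also lost without the 2 libraries that held cerebellar transcripts, in limma on the deposited log2 values, in a fit that was not robust and in a fit of the compared groups alone (adjusted p up to 0.175).

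**Figure D2:**
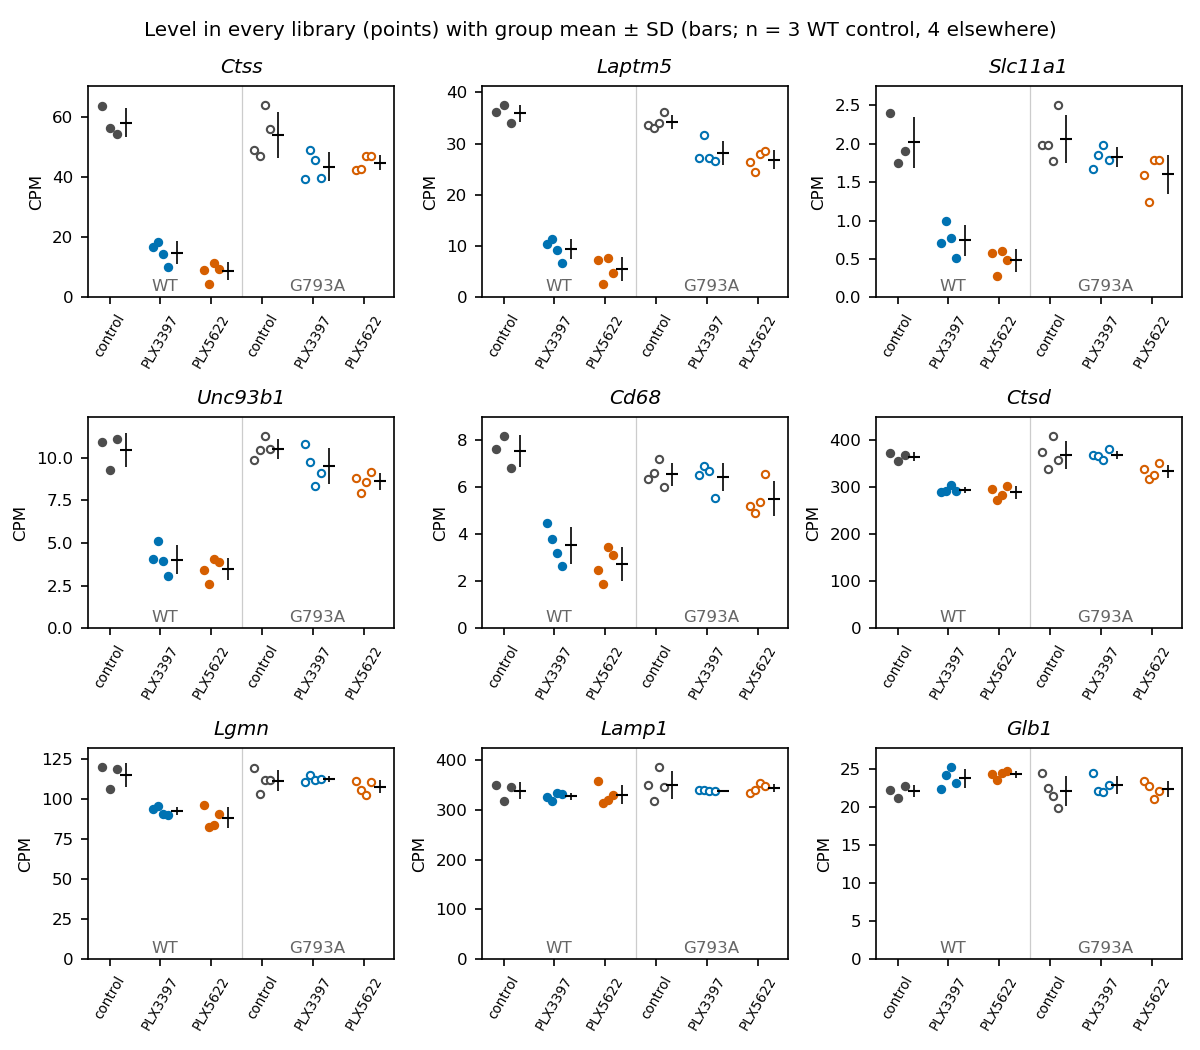
CPM of 9 lysosomal genes in each of the 23 libraries (points; filled WT, open G793A), with group mean ± SD beside them. For Ctss, Laptm5, Slc11a1, Unc93b1, Cd68, Ctsd and Lgmn the WT inhibitor libraries lie below all WT controls, while those of Lamp1 overlap the controls and the WT PLX5622 libraries of Glb1 lie above them.

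Share left and amount of transcript ranked the genes differently. Ctsd, with about 80% left, and Ctss, with 14.9% to 25.6% left, differed from control by similar amounts per length. The difference between WT control and WT PLX3397 means was 33.1 ± 2.97 CPM per kilobase (± SE) for Ctsd and 31.96 ± 2.51 for Ctss, and with PLX5622 it was 35.7 ± 4.04 and 36.6 ± 2.38. Lgmn (11.2 ± 2.31 and 13.4 ± 2.75) and Laptm5 (10.2 ± 0.55 and 11.7 ± 0.59) followed among the genes that fell with both inhibitors. Slc11a1, with the next lowest share left after Ctss and Laptm5, differed by 0.47 ± 0.08 and 0.56 ± 0.08 CPM per kilobase. In WT controls the median level per kilobase was 9.20 CPM for the 4 genes with under 40% left, 6.13 CPM for the 7 with 40 to under 80% left and 17.8 CPM for the other 29.

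**Figure D3:**
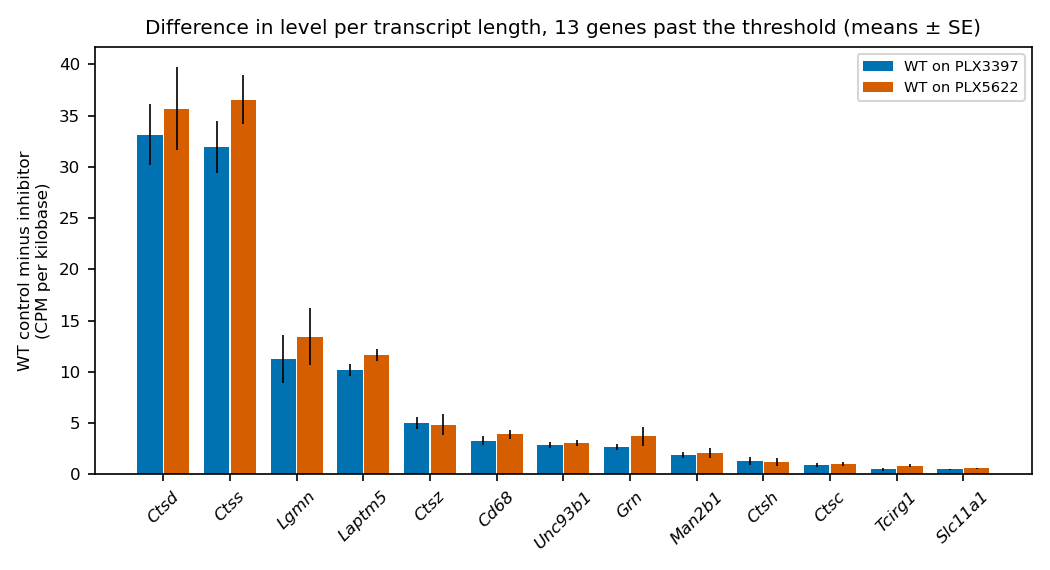
WT control mean minus WT inhibitor mean, in CPM per kilobase of transcript (bars, ± SE), for the 13 lysosomal genes that passed the test with PLX3397 or PLX5622 in WT mice. Ctsd and Ctss stand at 31.96 to 36.6 CPM per kilobase, and Lgmn and Laptm5 at 10.2 to 13.4.

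PLX5622 and PLX3397 were given at chow doses that differ, so their values are set side by side without a matched dose. The share left was lower with PLX5622 for each of the 5 genes with the lowest shares. In the comparison of these groups edgeR called 0 of the 40 lysosomal genes (0% of all genes). At an unadjusted p under 0.05 there were 6 of the 40, all lower with PLX5622, against 664 of all 16209 genes. Limma-voom and DESeq2 likewise called 0 of the 40. The 6 were Ctss (−0.78, 95% interval −1.19 to −0.36), Laptm5 (−0.75, −1.17 to −0.33), Slc11a1 (−0.61, −1.10 to −0.12), Cd68 (−0.36, −0.70 to −0.02), Tcirg1 (−0.25, −0.49 to −0.02) and Asah1. The libraries of the inhibitor groups overlapped for each of the 40. The median share left over the 12 microglia markers was 21.0% with PLX3397 and 11.2% with PLX5622, and its part in these differences was not tested.

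Other genes of the lysosome were taken from a second list of 88, of which 85 were tested. With each inhibitor 2 of the 85 fell and 0 rose in WT mice, Slc15a3 among them in both. Acp5, an acid phosphatase gene, had the highest value with PLX3397 (1.52 ± 0.65), which did not pass (adjusted p = 0.498). Its libraries there stood at 2.35, 0.215, 1.05 and 0.396 CPM, against 0.208 to 0.446 CPM in WT controls, and they overlapped. Slc15a3 encodes a peptide transporter of endolysosomes. It stood at 1.69, 1.69 and 1.63 CPM in WT controls, at 0.978, 0.590, 0.663 and 0.622 CPM with PLX3397 and at 0.551, 0.170, 0.441 and 0.688 CPM with PLX5622, so the groups did not overlap. It kept 42.7% ± 10.7 and 27.6% ± 13.1 and fell by 1.23 ± 0.31 (adjusted p = 0.0385) and by 1.82 ± 0.32 (adjusted p = 0.00101). The call with PLX3397 was lost in limma-voom (adjusted p = 0.0507) and without any of the 3 WT controls or WT PLX3397 replicate 2, 3 or 4 (adjusted p up to 0.14).

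The proton pump genes apart from Tcirg1 stayed near control. Of 18 tested, 0 passed in edgeR, DESeq2 or limma-voom with either inhibitor, with 0 and 1 at an unadjusted p under 0.05, and their median share left was 102% with PLX3397 and 104% with PLX5622. The 20 genes of sorting and regulation, which include Tfeb, Tfe3, Mitf and the mannose 6-phosphate receptor genes M6pr and Igf2r, likewise had 0 past the threshold in these 3 tools (1 and 0 at an unadjusted p under 0.05) and median shares of 100.3% and 101%. Neuron markers (6 genes) kept 102% to 111% with either inhibitor, astrocyte markers (6) 87.1% to 111% and oligodendrocyte markers (6) 90.6% to 99.1%. Markers of oligodendrocyte precursors (4) kept 71.2% to 103% with PLX3397, with 2 at an unadjusted p under 0.05, both lower, 0 past the threshold in edgeR and 1 in DESeq2, and 98.2% to 114% with PLX5622. Endothelial markers (4) kept 81.9% to 98.2% with PLX3397 and 86.4% to 94.5% with PLX5622, with 0 past an unadjusted p of 0.05. The part of these cell types in the lysosomal values was not tested.

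**Figure D4:**
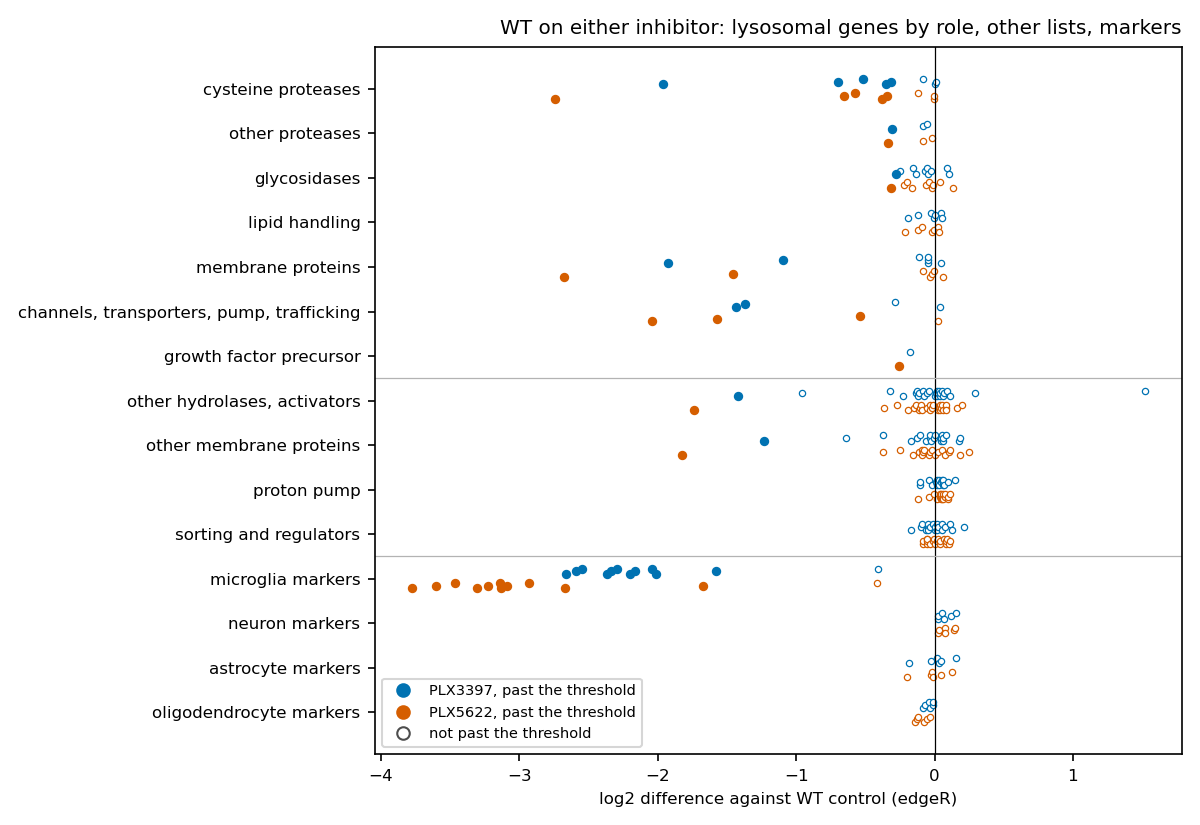
log2 difference of WT mice on PLX3397 (blue) and PLX5622 (orange) from WT controls for the lysosomal genes by role (top), the second list of lysosomal genes (middle) and cell type markers (bottom), with filled points past the edgeR threshold. Falls beyond −1 occur in single genes of the lysosomal groups, whereas 11 of 12 microglia markers fell with each inhibitor. The open point farthest right is Acp5 with PLX3397.

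Promoters were read from RefSeq on the mouse build GRCm38.p6, which is older than the authors' build, in windows from 250 bases before to 50 bases after a gene's annotated start. Such windows were at hand for 34 of the 40 genes, 39 windows in all. A match in any window of a gene counted. The basic helix-loop-helix factor TFEB switches on lysosomal genes through an E-box, and PU.1 is a master factor of macrophages. The letters searched, on both strands, were CACGTG for the E-box, TCACGTGA for the longer lysosomal element, which contains that E-box, and GAGGAAGT for a PU.1 core. The E-box was in 11 of the 34 (32.4%), against 8.09% of 27025 genes with a window. The longer element was in 4 (11.8%), Ctsa, Ctsd, Gla and Mcoln1, against 1.12% of all genes. The PU.1 core was in 4 (Ctsc, Ctss, Gla and Gusb), against 3.69% of all genes. By grade, the E-box was in 0 of 3 genes with under 40% left, 2 of 6 with 40 to under 80% left and 9 of 25 with 80% or more left. Lgmn, in the middle grade, holds its E-box only in the window of a second start, which matched no transcript used here. The PU.1 core was in 1 of 3, 1 of 6 and 2 of 25 genes in the same order. A match of letters is a description of the window and shows no binding.

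The stretches below run 5′ to 3′ on the plus strand, from 250 bases before to 10 bases after the start. They show the 2 genes with the lowest and the 2 with the highest shares left, and Lamp1, chosen after its matches were seen because it holds 4 E-boxes. They lie at chr3:95526536-95526795 (Ctss), chr4:130913066-130913325 (Laptm5), chr9:114400828-114401087 (Glb1), chr11:119267713-119267972 (Gaa) and chr8:13158911-13159170 (Lamp1), GRCm38.p6. Capitals mark the PU.1 core in Ctss, which reads there on the minus strand and begins 2 bases before the start, and E-boxes in the others. The stretch of Laptm5 holds none of the 3 motifs.
Ctss: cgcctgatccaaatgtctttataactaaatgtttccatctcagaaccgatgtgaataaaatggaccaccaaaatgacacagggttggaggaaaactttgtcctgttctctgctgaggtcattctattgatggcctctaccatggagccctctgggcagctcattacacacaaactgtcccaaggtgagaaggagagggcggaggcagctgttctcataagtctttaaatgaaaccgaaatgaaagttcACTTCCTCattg
Laptm5: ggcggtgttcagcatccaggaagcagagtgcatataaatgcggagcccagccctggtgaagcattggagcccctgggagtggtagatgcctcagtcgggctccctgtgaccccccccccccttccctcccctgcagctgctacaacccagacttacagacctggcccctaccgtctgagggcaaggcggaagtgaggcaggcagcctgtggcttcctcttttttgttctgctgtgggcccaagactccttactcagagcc
Glb1: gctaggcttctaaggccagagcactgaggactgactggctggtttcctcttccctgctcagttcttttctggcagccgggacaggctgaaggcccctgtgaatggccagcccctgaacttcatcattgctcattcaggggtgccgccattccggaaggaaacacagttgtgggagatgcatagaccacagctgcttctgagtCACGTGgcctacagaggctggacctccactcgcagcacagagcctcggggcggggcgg
Gaa: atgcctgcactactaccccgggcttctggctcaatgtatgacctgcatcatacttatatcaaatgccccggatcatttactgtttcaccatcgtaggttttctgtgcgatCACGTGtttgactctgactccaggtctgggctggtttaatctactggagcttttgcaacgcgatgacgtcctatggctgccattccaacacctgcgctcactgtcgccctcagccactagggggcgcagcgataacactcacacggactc
Lamp1: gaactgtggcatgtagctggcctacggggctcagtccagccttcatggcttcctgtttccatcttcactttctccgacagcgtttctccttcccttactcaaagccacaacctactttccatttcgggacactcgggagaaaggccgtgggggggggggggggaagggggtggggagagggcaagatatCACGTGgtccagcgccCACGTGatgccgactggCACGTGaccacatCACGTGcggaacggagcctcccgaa

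G793A mice on control chow had lysosomal transcripts near the levels of WT controls. For the 40 genes the group mean lay between 86.8% (Cd68) and 113% of the WT control mean, with a median of 99.7%. In edgeR 0 of the 40 passed (0% of all genes), and so did 0 in limma-voom and DESeq2. At an unadjusted p under 0.05 there were 0 of the 40 as well, against 1803 of all 16209 genes. No gene of the 40 had every G793A control library below every WT control, against 2.91% of all genes. The median share over the 12 microglia markers was 89.4%. For Ctss the 95% interval of the log2 difference ran from −0.51 to 0.29 and for Laptm5 from −0.46 to 0.32. Differences within these intervals are not excluded.

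In G793A mice on the inhibitors Ctss, Laptm5, Slc11a1, Unc93b1 and Cd68, picked by their low WT shares, stood much closer to control than in WT mice. The gap was smaller for others that had fallen. Ctsh stood at 82.9% of the WT control mean with PLX3397 and 74.85% with PLX5622, against 61.65% and 63.8% in WT mice. With PLX5622 Ctsz stood at 90.5%, against 105.4% in G793A controls and 78.9% in WT mice on PLX5622. Against G793A controls edgeR called 0 of the 40 with PLX3397 (0.00617% of all genes) and 0 with PLX5622 (0% of all genes). At an unadjusted p under 0.05 there were 0 of the 40 with PLX3397, against 1899 of all 16209 genes. With PLX5622 there were 7 of the 40, 6 of them lower, against 2639 of all genes, a similar share. Against WT controls edgeR called 0 with PLX3397 (0.00617% of all genes) and 0 with PLX5622 (0% of all genes). At an unadjusted p under 0.05 there was 1 of the 40 with PLX3397, against 1173 of all genes. With PLX5622 there were 7 of the 40, all lower, against 1095 of all genes. DESeq2 and limma-voom called 0 in each of these 4 comparisons. Those against WT controls use the same 3 libraries as the WT comparisons above, and those against G793A controls share 4 libraries with each other.

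Ctss in G793A mice stood at 49.2, 47.2, 64.0 and 56.0 CPM on control chow, at 39.6, 49.1, 45.9 and 39.7 CPM on PLX3397 and at 42.6, 42.7, 47.1 and 47.0 CPM on PLX5622. The PLX5622 libraries were just below the lowest control of their genotype, and the PLX3397 libraries overlapped it. The log2 difference from G793A controls was −0.31 ± 0.18 (95% interval −0.68 to 0.06) with PLX3397 and −0.27 ± 0.18 (−0.64 to 0.10) with PLX5622. Laptm5 in G793A mice stood at 33.6, 33.1, 34.0 and 36.2 CPM on control chow, at 27.2, 31.7, 27.3 and 26.7 CPM on PLX3397 and at 26.5, 24.5, 28.0 and 28.6 CPM on PLX5622. All 8 inhibitor libraries were below all 4 controls, by differences (−0.28 ± 0.17 and −0.35 ± 0.17) that did not pass (adjusted p = 0.535 and 0.326).

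Slc11a1 in G793A mice stood at 1.99, 1.98, 1.77 and 2.50 CPM on control chow, at 1.67, 1.86, 1.99 and 1.79 CPM on PLX3397 and at 1.59, 1.25, 1.79 and 1.79 CPM on PLX5622, with overlap between the groups. Unc93b1 in G793A mice stood at 9.86, 10.5, 11.3 and 10.5 CPM on control chow, at 10.8, 9.74, 8.36 and 9.11 CPM on PLX3397 and at 8.79, 7.96, 8.55 and 9.18 CPM on PLX5622. For Unc93b1 only the PLX5622 libraries lay apart from G793A controls (−0.29 ± 0.12, adjusted p = 0.247). Cd68 in G793A mice stood at 6.35, 6.61, 7.19 and 6.01 CPM on control chow, at 6.53, 6.91, 6.69 and 5.56 CPM on PLX3397 and at 5.19, 4.92, 5.38 and 6.57 CPM on PLX5622, again with overlap. Every library of G793A mice on an inhibitor was below all G793A controls for 1 of the 40 genes with PLX3397 (Laptm5) and for 3 with PLX5622 (Ctss, Laptm5 and Unc93b1), against 2.12% and 2.83% of all genes. Against WT controls these counts were 3 with PLX3397 and 9 with PLX5622, against 4.11% and 3.86% of all genes.

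The genes with the lowest shares left in WT mice also tended to the more negative log2 differences in G793A mice. The comparisons within each genotype share no library. Across the 40 genes, which are not independent replicates and share depth and cell source within a library, their log2 differences had a Pearson r of 0.735 and a Spearman rho of 0.658 with PLX3397, and 0.758 and 0.797 with PLX5622. Of the 11 genes with under 80% left in WT mice, 10 had a negative log2 difference in G793A mice on PLX3397 and 11 on PLX5622. Their medians were −0.14 and −0.24 in G793A mice and −0.70 and −0.65 in WT mice. The WT values chose these 11 genes, so the WT medians are low by that choice. The gap between the genotypes is thus no test. For the other 29 the medians in G793A mice were 0.00 and −0.02. As shares of the WT control level, the 4 genes of the lowest grade had medians of 98.1% in G793A controls, 84.5% in G793A mice on PLX3397 and 78.2% in G793A mice on PLX5622. The corresponding medians of the 12 microglia markers were 89.4%, 75.7% and 76.4%, and their part in these values was not tested. Border macrophage markers in G793A mice summed to 21.7 to 25.3 CPM on control chow, 16.9 to 19.1 CPM on PLX3397 and 15.98 to 20.4 CPM on PLX5622, and both inhibitor groups lay below the G793A controls. Against those controls 0 of these 8 markers passed in edgeR, DESeq2 or limma-voom. At an unadjusted p under 0.05, 4 and 1 were lower, against 1899 and 2639 of all 16209 genes in either direction. The median log2 difference of these markers was −0.51 with PLX3397 and −0.27 with PLX5622, against −0.25 and −0.21 for the microglia markers. The part of the border macrophage markers was not tested either. In G793A mice monocyte and neutrophil markers summed to 1.34 to 3.09 CPM on control chow, 1.43 to 9.03 CPM on PLX3397 and 5.38 to 25.8 CPM on PLX5622.

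**Figure D5:**
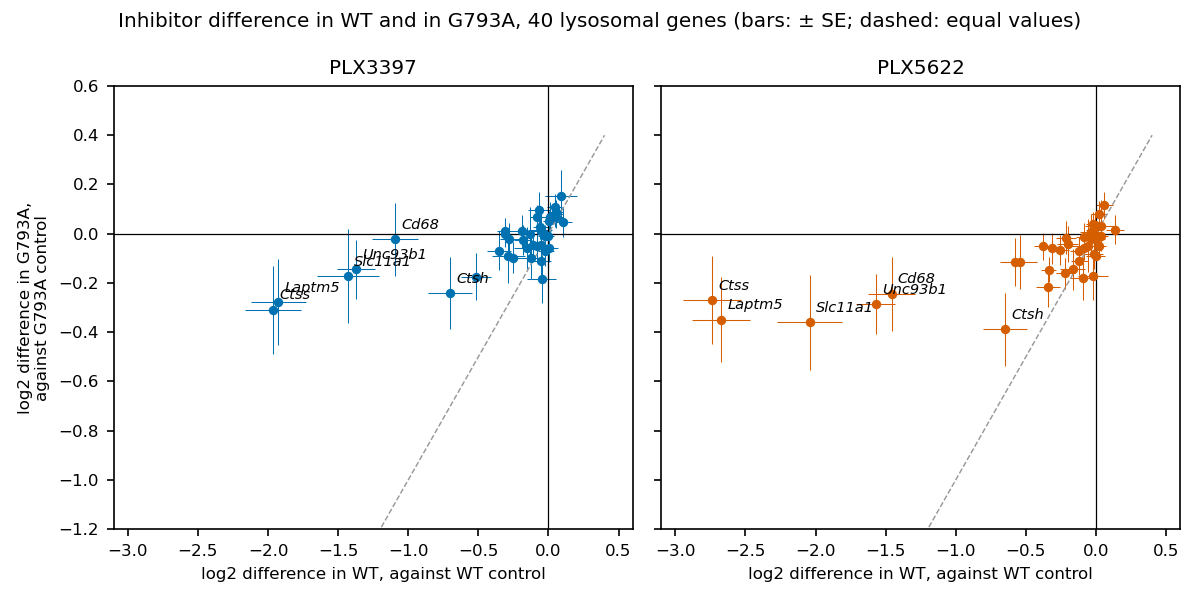
log2 difference of inhibitor from control in WT mice (horizontal) and in G793A mice (vertical) for the 40 lysosomal genes, with bars of ± SE, PLX3397 on the left and PLX5622 on the right. Ctss and Laptm5 lie between −1.93 and −2.74 in WT mice and between −0.27 and −0.35 in G793A mice, far above the dashed line of equal values.

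On the same chow, 8 of the 11 genes that fell with PLX3397 and 8 of the 13 that fell with PLX5622 passed the edgeR threshold as higher in G793A than in WT mice. On PLX3397 8 of the 40 genes were higher (Ctss, Laptm5, Slc11a1, Unc93b1, Cd68, Ctsd, Ctsz and Lgmn) and 0 lower, against 0.932% of all genes higher. On PLX5622 8 were higher, with Ctsc in place of Ctsz, and 0 lower, against 1.09% of all genes higher. Every G793A library lay above every WT library for 15 of the 40 on PLX3397 and for 9 on PLX5622, against 3.78% and 2.49% of all genes. These comparisons reuse the WT inhibitor libraries behind the shares left and the falls in WT mice, as do the interactions below, so they are not independent of them. Ctss was higher by 1.55 ± 0.19 (adjusted p = 4.19e-05) on PLX3397 and by 2.36 ± 0.20 (adjusted p = 1.81e-07) on PLX5622, and Unc93b1 by 1.23 ± 0.13 (adjusted p = 2.06e-06) and 1.29 ± 0.13 (adjusted p = 4.21e-07). Slc15a3 of the second list was also higher on each inhibitor, by 1.40 ± 0.29 (adjusted p = 0.00901) and 1.65 ± 0.31 (adjusted p = 0.00254). The call on PLX3397 was lost without WT PLX3397 replicate 2 or 4 or G793A PLX3397 replicate 4 (adjusted p up to 0.0521).

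Ctsd, whose change in WT mice was small, was also higher in G793A mice on each inhibitor. Ctsd in G793A mice stood at 373, 337, 407 and 356 CPM on control chow, at 368, 366, 356 and 379 CPM on PLX3397 and at 338, 317, 326 and 350 CPM on PLX5622. On PLX3397 the G793A libraries were well above the WT libraries (0.32 ± 0.05, adjusted p = 0.000428), and on PLX5622 they were closer (0.21 ± 0.05, adjusted p = 0.0462). The PLX5622 call was lost on leaving out any 1 of 17 libraries, with the highest adjusted p, 0.244, without WT PLX5622 replicate 2. It held without G793A control replicate 1, 2 or 3, G793A PLX3397 replicate 3, WT PLX5622 replicate 4 or G793A PLX5622 replicate 2. It was lost with the compared groups alone (adjusted p = 0.0753) and without both libraries that held cerebellar transcripts (adjusted p = 0.0565). Man2b1 did not pass on PLX5622 in edgeR (adjusted p = 0.179). There it did pass with the trend along transcript length and GC content removed (adjusted p = 0.0469) and without WT PLX5622 replicate 3 (adjusted p = 0.0215). The Ctsz call on PLX3397 was lost without WT PLX3397 replicate 2, 3 or 4 or G793A PLX3397 replicate 2 or 4 (adjusted p up to 0.099) and with the trend along transcript length and GC content removed (adjusted p = 0.0701), and the Ctsc call on PLX5622 without WT PLX5622 replicate 2 or 3 (adjusted p up to 0.0588) and in limma on the deposited log2 values (adjusted p = 0.0703).

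The difference between the genotypes in the inhibitor's effect was tested as an interaction, the G793A log2 difference less the WT one, each against controls of its own genotype. With PLX3397 it passed for 5 of the 40 genes, Ctss, Laptm5, Slc11a1, Unc93b1 and Cd68, all positive, against 0.549% of all genes positive and past the threshold. With PLX5622 it passed for these 5 and Lgmn, against 0.802% of all genes. For Unc93b1 the interaction was 1.23 ± 0.18 (adjusted p = 0.000606) with PLX3397 and 1.29 ± 0.18 (adjusted p = 0.000131) with PLX5622. Ctsd (0.31 ± 0.08, adjusted p = 0.0727, and 0.19 ± 0.08, adjusted p = 0.568) and Ctsh (0.46 ± 0.21 and 0.26 ± 0.22) did not pass with either, though Ctsd passed with PLX3397 in DESeq2 (adjusted p = 0.00587). Without G793A control replicate 3 it passed with PLX3397 in edgeR (adjusted p = 0.005015). With the trend along transcript length and GC content removed Ctsd passed with both (adjusted p = 0.00669 with PLX3397 and 0.0262 with PLX5622). Lgmn with PLX3397 was 0.32 ± 0.08 (adjusted p = 0.0724) and passed in DESeq2 (adjusted p = 0.011) and with that trend removed (adjusted p = 0.0228). It also passed in edgeR without WT control replicate 2 (adjusted p = 0.0266), G793A control replicate 1 (adjusted p = 0.0437) or WT PLX5622 replicate 1 (adjusted p = 0.0432). The Cd68 call with PLX3397 was lost without WT control replicate 1 or 2 (adjusted p up to 0.0671). The Slc11a1 call with PLX3397 was lost on leaving out any 1 of 18 libraries (adjusted p up to 0.217, without WT control replicate 1). It held without G793A control replicate 4, WT PLX3397 replicate 2, WT PLX5622 replicate 1 or 2 or G793A PLX5622 replicate 2. It was also lost with no filter on low counts (adjusted p = 0.0567), in a fit that was not robust (adjusted p = 0.0508), with the compared groups alone (adjusted p = 0.0516) and in limma on the deposited log2 values (adjusted p = 0.584). The Lgmn call with PLX5622 was lost on leaving out any 1 of 19 libraries (adjusted p up to 0.172, without WT control replicate 3), and held without WT control replicate 2, G793A control replicate 1, WT PLX5622 replicate 1 or G793A PLX5622 replicate 3. It was also lost with no filter on low counts (adjusted p = 0.0525), in limma on the deposited log2 values (adjusted p = 0.0551) and with the compared groups alone (adjusted p = 0.209).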

How the data were processed

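Whole RNA of brain tissue was made into stranded oligo-dT libraries and sequenced on a NovaSeq instrument, per the labels. Per the submitters' processing notes the tools were kallisto 0.46.1, FastQC 0.11.9 and DESeq2 1.26.0, and the build GRCm39. The deposited table holds estimated counts per gene symbol (expected counts), of which 45.3% are not whole, and their summing from transcripts to genes is not described in the labels. A deposited table of variance-stabilised values, on a log2 scale, served only as an alternative. An entry with no gene name (at most 0.0151% of a library) was left out.

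After rounding, counts went into edgeR 4.0.16 under R 4.3.3 (TMM, filterByExpr with minimum count 10 and minimum total 15, robust quasi-likelihood, 1 model of 23 libraries, two-sided, Benjamini-Hochberg over 16209 genes, threshold 0.05). The fit was checked on simulated counts. SEs of log2 differences were worked back from this model's test, as the absolute log2 difference over the square root of its F statistic. The 95% intervals were built from these SEs, so each takes in the spread of all 6 groups. SEs of differences in CPM per kilobase come from the libraries of the compared groups alone. Alternatives were RLE scaling, other filters, no robust step, limma 3.58.1 (voom, and on the log2 values), DESeq2 1.42.0, replicate block, the compared groups alone, removal of trends along transcript length and GC content (matched for 98.0% of genes) and leaving out each library. Leaving out the libraries with Cbln3 above 5 CPM was added after seeing the data. Replicate numbers did not pair libraries (residual correlation, median 0.00553 over 55 same-numbered pairs and 0.0015 over 165 others). Replicates differed beyond counting noise (chi-square per degree of freedom 6.05 to 76.4), so none was a repeat deposit. Transcript length is that of the GENCODE transcript with the longest coding sequence.

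The 40 genes and the other lists were chosen with earlier results of these data known. Every library's value is given for the genes past the threshold in WT mice on either inhibitor and for the 3 with the highest shares left. The values of 1 gene of the second lysosomal list are not reported here.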

Additional observations from a re-analysis of the deposited data

Results flagged for a closer look

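A library stood apart from the other 3 of its group, by a gap to its neighbour past Dixon's 95% limit for 4 values, in 9 of 200 groups of 4 libraries, where chance gives about 1 in 20. Ctsz did so in 3 groups. Its outlying library had 28.4 CPM in WT mice on PLX3397 (replicate 1), 41.5 CPM in G793A controls (replicate 3) and 35.6 CPM in G793A mice on PLX3397 (replicate 4), each above the others. In G793A mice on PLX3397 a library also stood apart for Ctsl (replicate 3, 103 CPM), Gusb (replicate 2, 15.8 CPM), Laptm5 (replicate 2, 31.7 CPM) and Cd63 (replicate 4, 40.7 CPM). The others were Laptm4a in WT mice on PLX3397 (replicate 3, 175 CPM) and Psap in G793A controls (replicate 1, 1987 CPM).

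The inhibitor's effect differed between the genotypes, by the interaction in edgeR, for 5 genes with PLX3397 and 6 with PLX5622, all with a smaller fall in G793A mice. With PLX3397 the interaction (log2) was 1.66 for Ctss (adjusted p = 0.00236), 1.65 for Laptm5 (adjusted p = 0.00208), 1.07 for Cd68 (adjusted p = 0.0155), 1.258 for Slc11a1 (adjusted p = 0.0468) and 1.23 for Unc93b1 (adjusted p = 0.000606). With PLX5622 it was 2.47 for Ctss (adjusted p = 1.66e-05), 2.33 for Laptm5 (adjusted p = 2.20e-05), 1.21 for Cd68 (adjusted p = 0.00332), 0.33 for Lgmn (adjusted p = 0.0451), 1.68 for Slc11a1 (adjusted p = 0.00249) and 1.29 for Unc93b1 (adjusted p = 0.000131).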

How the results depend on the processing

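No log2 difference past the threshold changed direction in the alternatives run, but shares near 100% crossed it. The share of Gaa left with PLX5622 was 102.5% and was 97.8% without WT control replicate 2, and that of Ctsf was 99.97% and was 103% without WT control replicate 1. Leaving out each library in turn gave 7 to 12 lysosomal genes past the threshold in WT mice on PLX3397 (7 without WT control replicate 3) and 8 to 13 on PLX5622 (8 without WT control replicate 1 and without WT PLX5622 replicate 2). For G793A mice on PLX5622 against G793A controls it gave 0 to 2 (2 without G793A control replicate 2, Ctsd with adjusted p = 0.0323 and Npc2 with adjusted p = 0.0379, both lower). The interaction with PLX3397 gave 3 to 6 (3 without WT control replicate 1), that with PLX5622 5 to 6, and G793A against WT 7 to 8 on PLX3397 and 6 to 8 on PLX5622. The cause of these moves was not tested. Whichever library was left out, 7 of the 11 calls in WT mice on PLX3397 and 8 of the 13 on PLX5622 remained. With a replicate block the counts were 10 and 11 in WT mice, 8 and 8 for G793A against WT, and 4 and 6 for the interactions. The calls lost there were Man2b1 with PLX3397 (adjusted p = 0.0647), Ctsh (adjusted p = 0.0527) and Grn (adjusted p = 0.0557) with PLX5622 and the Slc11a1 interaction with PLX3397 (adjusted p = 0.102). The replicate numbers do not pair the libraries. With the compared groups alone the counts in WT mice were 10 and 9, and without the libraries that held cerebellar transcripts 11 and 10. Of the 85 other lysosomal genes, 2 with each inhibitor in edgeR, DESeq2 called 3 with each and limma-voom 1 with PLX3397 and 2 with PLX5622. Without WT control replicate 3 the shares left moved by up to 9.74 percentage points. Slc11a1, at 0.272 to 2.50 CPM, lost its G793A against WT calls (adjusted p = 0.0666 and 0.221) and both interactions (up to 0.627) in limma on the deposited log2 values.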
